A study of Mus musculus with 13 samples.

Results

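The cells described here are germ-free mouse colon epithelial cells with Cyp2c55, called Cyp2c55 colonocytes below. They were chosen by a fixed gate on measured values. A cell had to have at least 500 detected genes, and its UMI (unique molecule) counts were scaled to 10000 per cell. The summed level of the goblet genes Muc2, Fcgbp and Zg16 had to be under 30 per 10000 UMI, the sum of the distal colon genes Slc37a2, Atp12a, Tgm3 and Fxyd4 under 5, and Cyp2c55 at 3 or more. The gate kept 198 of the 768 germ-free cells, out of 4183 cells in the whole data set. Since Cyp2c55 chose the cells, every contrast within the germ-free pool is a description and supports nothing by itself.

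The study measured epithelial cells of whole colons with a droplet 3' single-cell assay, sorted for EPCAM and against CD45, in equal parts CD44+ (proliferative) and CD44- (differentiated). Germ-free C57BL/6J mice gave 2 cDNA libraries in a second batch, and antibiotic-treated wild type C57BL/6J mice gave 3 in a first batch. Cells were pooled by condition before sorting, so each condition is 1 sample and there is no replicate error and no test. Every difference between the conditions is also one between batches, and these cannot be told apart. Ages, sexes, the number of mice and the antibiotics are not given in the labels, and control mice and the barcode libraries were not analysed here. Cell names carry a number after the barcode, and the cells that share one are called a cell set. The Cyp2c55 colonocytes comprised 52 of 306 cells of germ-free cell set 3 and 146 of 462 cells of germ-free cell set 4.

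Absorptive colonocytes are the surface cells of the colon that take up water, salts, bile acids and short-chain fatty acids, and they differ along the organ. Cyp2c55 encodes a cytochrome P450 of the Cyp2c family, enzymes that oxidise arachidonic acid and foreign compounds. Fabp2 binds fatty acids inside enterocytes, Mettl7b is a methyltransferase of the endoplasmic reticulum, and Lgals2 is a galectin, a sugar-binding lectin. These 4 genes are the proposed markers of the cells.

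The promoters of 4 genes that set the cells apart in level are shown here as the DNA around the start sites, from RefSeq on GRCm38.p6, 250 bases before to 50 after each start, 5' to 3' on the gene's strand. Cyp2c55 (chr19:39006769-39007068, plus strand) is the gene of the gate and Fabp2 (chr3:122894822-122895121, plus strand) the most abundant of the other markers. Capitals mark TTTAT or its reverse complement ATAAA, an AT-rich stretch found in sites of Cdx-type homeodomain factors but not only there. Of 32851 promoters of this length, 40.0% contain it on either strand.

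Cyp2c55: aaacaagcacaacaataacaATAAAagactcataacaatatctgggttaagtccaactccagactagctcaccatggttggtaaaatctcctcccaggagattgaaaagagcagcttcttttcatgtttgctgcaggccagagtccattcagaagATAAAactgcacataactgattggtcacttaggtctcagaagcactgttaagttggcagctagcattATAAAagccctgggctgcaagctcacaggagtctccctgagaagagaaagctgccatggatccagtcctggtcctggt

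Fabp2: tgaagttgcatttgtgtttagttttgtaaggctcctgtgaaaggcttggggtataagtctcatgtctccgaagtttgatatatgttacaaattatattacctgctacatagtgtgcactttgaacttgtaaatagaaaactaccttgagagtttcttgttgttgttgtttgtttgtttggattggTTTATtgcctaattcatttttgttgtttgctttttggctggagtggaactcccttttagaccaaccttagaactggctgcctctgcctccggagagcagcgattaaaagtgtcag

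Slc51a (chr16:32487830-32488129, minus strand) and Slc51b (chr9:65422724-65423023, minus strand) encode the subunits of the basolateral bile acid exporter and were both higher in the Cyp2c55 colonocytes. Capitals mark AGGTCA or its reverse complement TGACCT, the half-site of many nuclear receptors, which 16.3% of all promoters contain.

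Slc51a: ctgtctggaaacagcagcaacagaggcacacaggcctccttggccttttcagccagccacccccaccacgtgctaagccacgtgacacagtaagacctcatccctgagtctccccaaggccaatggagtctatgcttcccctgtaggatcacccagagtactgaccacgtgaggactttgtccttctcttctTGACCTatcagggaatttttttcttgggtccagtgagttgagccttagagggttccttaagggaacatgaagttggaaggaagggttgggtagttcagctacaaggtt

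Slc51b: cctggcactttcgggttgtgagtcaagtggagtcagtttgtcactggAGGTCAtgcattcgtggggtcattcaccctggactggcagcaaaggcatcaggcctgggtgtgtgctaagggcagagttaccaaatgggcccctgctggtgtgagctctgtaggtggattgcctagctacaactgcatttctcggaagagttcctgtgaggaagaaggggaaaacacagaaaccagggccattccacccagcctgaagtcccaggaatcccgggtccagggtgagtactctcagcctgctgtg

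ATAAA was found 3 times in the Cyp2c55 window and TTTAT 1 time in that of Fabp2, while TGACCT occurred 1 time in Slc51a and AGGTCA 1 time in Slc51b. The last of the Cyp2c55 matches follows a T and so has the form of a TATA box, and it cannot be assigned to Cdx-type factors. These are matches of letters only, and no binding was measured.

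Several properties of the libraries touch every result. The Cyp2c55 colonocytes had a median of 3714 UMI per cell, 1510 in cell set 3 and 4970 in cell set 4, against 9957 in antibiotic cells that passed the same gate. Mitochondrial genes took a median of 21.3% of UMI in the former and 13.3% in the latter. In the antibiotic pool 810 barcodes occurred in more than 1 cell set, covering 1647 cells, or 48.2% of the pool. The deepest copy held a median of 10.8 times the UMI of the shallowest, and 812 of the 837 shallower copies were most correlated, over 3000 genes, with their own deeper copy. By this measure the antibiotic cell sets share cells, and they are not taken as separate samples, whereas no barcode was shared between the germ-free cell sets or between conditions. Summed over the cells, the Cyp2c55 colonocytes held 1024561 UMI, of which cell set 3 gave 86033, so that 1 UMI there is worth 11.6 CPM (UMI of a gene per 1e6 UMI of the group).

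The gate was passed by 25.8% of germ-free cells (22.7 to 29.0, exact 95% interval for counting error only), by 17.0% in cell set 3 and 31.6% in cell set 4. In the antibiotic pool it was passed by 40.5%, or 1383 of 3415 cells, and by 44.4% with each barcode counted once in its deepest cell set. Among cells that met every other part of the gate, Cyp2c55 was at 3 or more in 198 of 457 germ-free cells (43.3%, 38.7 to 48.0) and in 1383 of 2388 antibiotic cells (57.9%, 55.9 to 59.9). The sort fixed the mix of CD44+ and CD44- cells, so these shares are not the makeup of the colon, and the part of depth in them was not tested.

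Within the gate the Cyp2c55 level ran from 3.02 to 50.8 per 10000 UMI, with a median of 10.9. The median was 13.7 in cell set 3 and 9.80 in cell set 4. It was 24.6, 21.4 and 20.4 in antibiotic cell sets 1, 2 and 3, so both germ-free medians lay below all 3. Counts behind these levels were small: 33 of the 198 cells had 1 Cyp2c55 UMI, 31 had 2, and 44 had at least 10. The last cells inside the threshold were at 3.02, 3.04 and 3.16 per 10000 UMI and the first ones outside at 2.96, 2.84 and 2.83, each of these 6 with 1 UMI. Of the 259 germ-free cells that met every part of the gate except Cyp2c55, called Cyp2c55-low cells below, 31 had a Cyp2c55 UMI, and so had 6 of 78 germ-free cells over the goblet limit (7.69%), at median depths of 3166 and 2746 UMI. After each cell was thinned to 1000 UMI, a Cyp2c55 UMI was found in 74.1% of 189 Cyp2c55 colonocytes (9 shallower ones left out), in 1.26% of 239 Cyp2c55-low cells (20 left out) and in 2.74% of 73 cells over the goblet limit (5 left out).

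**Figure D1:**
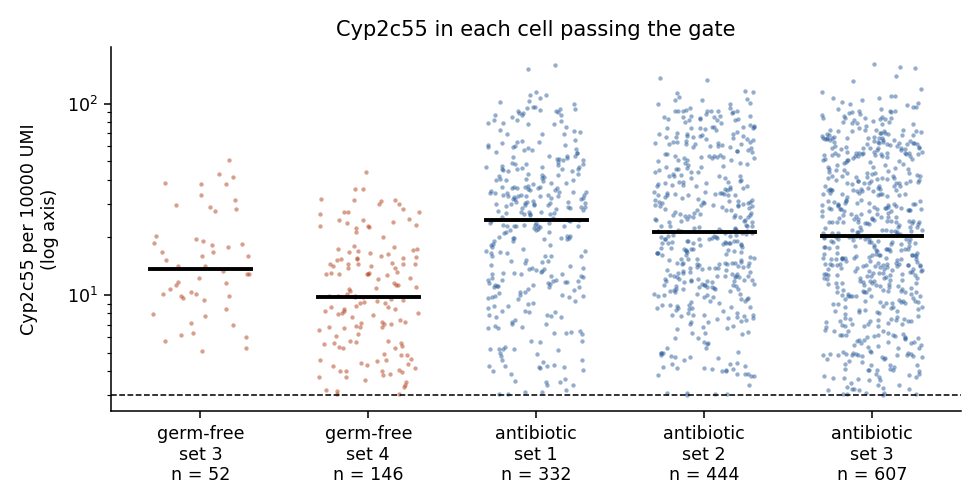
Cyp2c55 per 10000 UMI (log axis) in each cell that passed the gate, by cell set. Points are cells, black lines medians and the dashed line the threshold of 3. Germ-free medians of 13.7 and 9.80 lie below the antibiotic medians of 24.6, 21.4 and 20.4.

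The proposed markers did not all mark the cells. Levels below are CPM of the summed UMI, with a gene called higher or lower within the germ-free pool when it differed at least 2-fold in CPM + 1 and in the same direction in both cell sets. Among 3756 genes with enough UMI (at least 50 in total and at least 50 CPM in the higher group), 148 were called higher in the Cyp2c55 colonocytes than in the other 570 germ-free cells, 3.94% of them, and 189 were called lower, 5.03%. Without cell set 4 the counts were 87 and 92 among 1399 genes with enough UMI. At any size, 33.7% of genes were higher and 35.0% lower in both cell sets. Against the Cyp2c55-low cells 237 of 3817 genes (6.21%) were called higher and 215 (5.63%) lower, and at any size 34.5% were higher and 34.9% lower. The gate itself removes goblet and distal cells, so a share of these calls is fixed by it. A gene can also pass the 50 CPM minimum in 1 group alone, and its direction is then set by the minimum, and such genes are counted apart for the lists below where they bear on a call.

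Cyp2c55 (chr19:39007019-39042693) was at 1778 CPM in cell set 3 and 1183 CPM in cell set 4 of the Cyp2c55 colonocytes, against 158 and 121 CPM in the other germ-free cells. Fabp2 (chr3:122895072-122899506) was at 1441 and 1097 CPM against 574 and 419 CPM, and pooled it was 2.55-fold higher (2.33 to 2.78). Mettl7b (chr10:128958274-128960988) was at 140 and 225 CPM against 78.9 and 67.1 CPM, 3.16-fold higher (2.55 to 3.93), with a log2 ratio of 1.65 that was 0.81, under 2-fold, without cell set 4. Lgals2 (chr15:78850860-78855529) went the other way, at 69.7 and 127 CPM against 199 and 164 CPM. A Lgals2 UMI was found in 12.7% of thinned Cyp2c55 colonocytes, below the 17.8% of thinned germ-free cells over the goblet limit, and the source of these UMI was not tested. Of the 3 markers that the gate did not use, Fabp2 and Mettl7b were thus higher in the gated cells and Lgals2 was not, and Cyp2c55 was high by the choice of cells. Fabp2 UMI were also widespread in the germ-free pool, in 55.0% of thinned Cyp2c55 colonocytes and 30.1% of thinned cells over the goblet limit.

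Of 16 measured genes of a proximal colon list, 9 were called higher than in the other germ-free cells and 2 lower, with a median log2 ratio of 1.29 against -0.02 over all genes. Of the 16, 6 passed the minimum in the Cyp2c55 colonocytes alone, and of the other 10, 6 were called higher and 2 lower. The 9 included the gate gene Cyp2c55, Cyp2c65, Slc13a1, Ces1g, Slc9a3, Nr1h4 and Slc51b. Cyp2c65, a neighbouring paralog whose reads can be shared with Cyp2c55, was at 628 and 426 CPM against 170 and 84.1 CPM. Adh1, an alcohol dehydrogenase on the same list, was lower, at 58.1 and 56.5 CPM against 319 and 266 CPM, and so was Prdx6, an antioxidant peroxiredoxin, at 302 and 305 CPM against 609 and 779 CPM. Of 9 measured genes of a distal colon list, which includes the distal gate genes, 6 passed the minimum in the other germ-free cells alone, so that their direction was set by it. Of the other 3, 1 was called higher and 1 lower. Of the distal colon genes that the gate did not use, Hoxb13, the most posterior gene of the Hoxb cluster, was at 19.5 CPM against 145 CPM and is among the 6. Sycn, a secretory granule protein, was at 286 CPM against 1193 CPM. Aqp4, a water channel on the distal list, was instead 2.29-fold higher (1.90 to 2.76), at 326 and 231 CPM against 97.8 and 106 CPM. The 2 lists were thus mixed, with Adh1 and Prdx6 called against the proximal list and Aqp4 against the distal one. Against the Cyp2c55-low cells, 8 of 17 measured proximal genes were called higher and 1, Adh1, lower, where 6.21% and 5.63% of all genes were. Of the 17, 6 passed the minimum in the Cyp2c55 colonocytes alone and 1 in the Cyp2c55-low cells alone. Of the other 10, 4 were called higher and 1 lower. Their median log2 ratio was 0.23, against 0.04 over all genes past the minimum in both groups.

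Genes of colonocyte differentiation were mostly higher. Against the Cyp2c55-low cells, 14 of 18 measured colonocyte genes were called higher and 0 lower, with a median log2 ratio of 1.26 against 0.00 over all genes. Of the 18, 4 passed the minimum in the Cyp2c55 colonocytes alone, and of the other 14, 10 were called higher. Against all other germ-free cells 7 of 18 were called higher and 1, Saa1, lower, with a median of 0.88. Car1, a cytosolic carbonic anhydrase, was at 7705 CPM against 784 CPM in the Cyp2c55-low cells, 9.83-fold higher (9.16 to 10.6). Guca2a, the hormone guanylin, was at 3369 CPM against 784 CPM. In the same contrast Krt20, a keratin of mature surface cells, was at 467 CPM against 124 CPM, and Tmigd1, an adhesion protein of the brush border, at 112 CPM against 17.9 CPM. Against all other germ-free cells Tmigd1 had a log2 ratio of 2.59, and 1.72 without cell set 4. By summed UMI, 196 of the 198 Cyp2c55 colonocytes (99.0%) had more colonocyte-list UMI than crypt and proliferation UMI, against 70.7% of Cyp2c55-low cells. The Cyp2c55-low cells thus contain crypt cells, and position and maturity cannot be told apart in this contrast. Of 8 measured crypt genes 6 were called lower and 1, Prom1, higher, and against all other germ-free cells 4 were lower and 1 higher. In both contrasts 3 of the 8 passed the minimum in the reference cells alone. Slc12a2, a chloride importer of crypt cells, was at 65.4 CPM against 370 CPM in the Cyp2c55-low cells. Over the other germ-free cells its log2 ratio of -2.39 was -1.61 without cell set 4.

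Most of the bile acid and sterol list was not called in either direction. Of 12 measured genes of bile acid and sterol handling, 4 were called higher than in the other germ-free cells and 0 lower, with a median log2 ratio of 0.45, and at any size 8 were higher and 2 lower. The transporter genes, 3 of the 4, passed the minimum in the Cyp2c55 colonocytes alone, so that their direction was set by it. Of the 9 genes past the minimum in both groups 1, Nr1h4, was called higher. Slc10a2, the apical bile acid importer, was at 116 and 128 CPM in the 2 cell sets against 28.4 and 31.3 CPM. Slc51a was at 128 and 118 CPM against 12.6 and 14.8 CPM, 8.24-fold higher (5.49 to 12.7), and Slc51b at 93.0 and 132 CPM against 56.8 and 36.4 CPM. Nr1h4, the bile acid receptor FXR, was at 244 and 336 CPM against 101 and 141 CPM. These 4 encode the importer, the exporter and the receptor. They were named because they were called higher, as were 3.94% of all genes.

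Some genes of fatty acid metabolism were also higher. Of 23 measured genes in the list of fatty acid oxidation with PPAR targets, 5 were called higher and 0 lower, with a median log2 ratio of 0.64. Of all genes 3.94% were called higher and 5.03% lower. Of the 23, 2 passed the minimum in the Cyp2c55 colonocytes alone. Pparg, a lipid-sensing nuclear receptor, was at 452 CPM against 210 CPM. The log2 ratio of Pparg, 1.10, was 0.95 and under 2-fold without cell set 4. Aldh1a1, which makes retinoic acid, was at 233 and 224 CPM against 59.9 and 51.7 CPM. Of 7 measured genes of nicotinic acid and NAD metabolism 0 were called higher and 1, Nmnat3, lower, past the minimum in the other germ-free cells alone. Hcar2, the nicotinic acid receptor, had no UMI in the Cyp2c55 colonocytes, where 3 UMI are worth 2.93 CPM.

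The genes with the largest ratios over the other germ-free cells included, besides Slc51a, Tmigd1 and Car1, Sptssb, a subunit of the enzyme that starts sphingolipid synthesis, at 68.3 CPM against 7.71 CPM. Hkdc1, a hexokinase family member, was at 23.2 and 62.9 CPM against 12.6 and 5.68 CPM, and its log2 ratio of 2.97 became 0.83 without cell set 4. Also among them were Ncoa7, Ppfia3, Cyp4b1, Abca12, Bmp3 and Hdac9, with log2 ratios of 2.21 to 2.43. Without cell set 4 that of Ncoa7 was 1.47, and that of Hdac9 was 2.99. The genes at the other end were goblet and crypt secretory products, such as Mptx1 at 83.9 CPM against 2678 CPM (log2 ratio -4.98, and -6.34 without cell set 4) and Clca1 at 31.2 CPM against 620 CPM. Against the Cyp2c55-low cells, from which the gate had also removed goblet cells, Clca1 was at 31.2 CPM against 30.5 CPM.

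**Figure D2:**
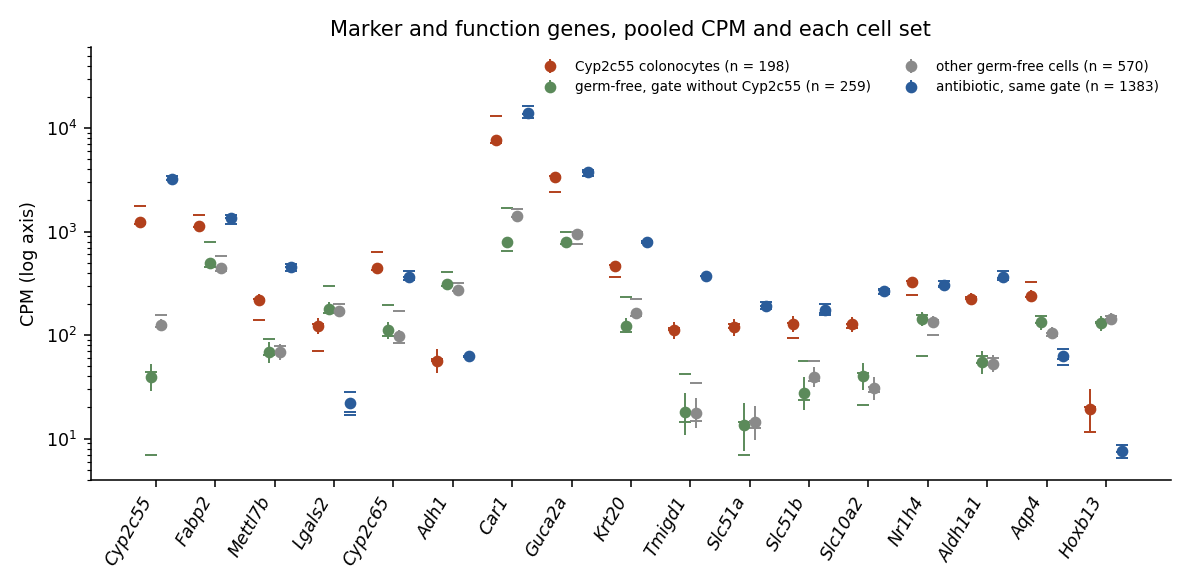
Pooled CPM (log axis) of marker and function genes in the 4 sets of cells. Points are pooled values with exact Poisson 95% intervals, and dashes are single cell sets with at least 1 UMI. Lgals2 and Adh1 lie lower in the Cyp2c55 colonocytes than in the other germ-free cells, unlike the rest of the genes shown except Hoxb13.

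Levels of some colonocyte genes differed with the level of Cyp2c55 within the gate. The cells were taken in 3 ranges, 3 to under 6 (42 cells), 6 to under 12 (64 cells) and 12 or more per 10000 UMI (92 cells), at median depths of 3714, 4274 and 3514 UMI. Car1 was at 4193, 5348 and 11770 CPM in that order, and Aldh1a1 at 105, 173 and 341 CPM. Mettl7b was at 149, 232 and 252 CPM, while Fabp2 was level at 1105, 1142 and 1128 CPM. Car1 and Aldh1a1 were thus highest in the cells highest in Cyp2c55, and Fabp2 was not. Mki67, a marker of cycling cells, was at 116 CPM in the lowest range against 12.4 and 23.5 CPM in the others. Antibiotic gated cells had the same order for Aldh1a1 (154, 246 and 423 CPM) and Mettl7b (249, 371 and 503 CPM). In the highest range, with 92 germ-free and 985 antibiotic cells, Car1 was at 11770 CPM against 14770 CPM. In the middle range it was at 5348 CPM against 13740 CPM, in the lowest at 4193 CPM against 7348 CPM, and pooled at 7705 CPM against 13910 CPM. Car1 was thus lower in germ-free cells in every range, by unequal amounts, and so was Mettl7b, at 252 CPM against 503 CPM in the highest. In the lowest range lay 42 of the 198 germ-free cells and 156 of the 1383 antibiotic ones, so the pooled differences below compare unequal mixes of Cyp2c55 levels.

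**Figure D3:**
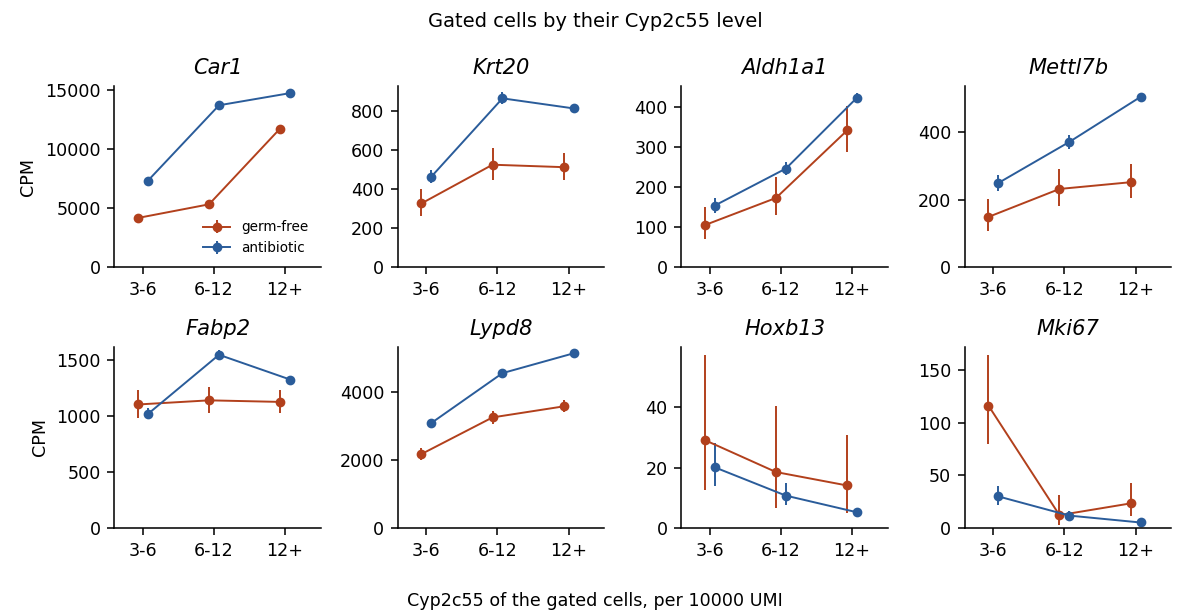
CPM of 8 genes in gated cells by their Cyp2c55 level (per 10000 UMI), germ-free in red and antibiotic in blue, with exact Poisson 95% intervals over pooled UMI. Car1 and Aldh1a1 increase over the ranges in germ-free cells, from 4193 to 11770 CPM and from 105 to 341 CPM, while Fabp2 stays between 1105 and 1142 CPM.

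The comparison with antibiotic cells of the same gate asks how cells chosen alike differ between mice raised germ-free and mice given antibiotics. Of 3461 genes with enough UMI, 87 (2.51%) were at least 2-fold higher in the germ-free Cyp2c55 colonocytes with both germ-free cell sets above all 3 antibiotic ones, and 92 (2.66%) at least 2-fold lower with both below. With median-of-ratios scaling the split was 56 and 123, and the median log2 ratio over all genes was 0.14 with the main scaling. With each antibiotic barcode counted once the counts were 91 and 93. Without germ-free cell set 4, where the 52 shallow cells of cell set 3 alone had to lie outside the antibiotic sets, they were 664 and 394 among 3775 genes. Of the 87 higher genes, 64 were at or below their level in the Cyp2c55-low cells of the same germ-free pool, against 31 of the 92 lower genes and 40.9% of all 3461. Xist was at 558 and 594 CPM against 118, 128 and 116 CPM, the mix of sexes in the pools is not given in the labels, and the part of sex in the results was not tested.

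Cyp2c55 itself was 2.62-fold lower (2.48 to 2.77) than in antibiotic gated cells, at 1778 and 1183 CPM against 3424, 3163 and 3175 CPM, and without cell set 4 its log2 ratio went from -1.39 to -0.86, under 2-fold. Mettl7b was at 140 and 225 CPM against 415, 486 and 456 CPM, with a log2 ratio of -1.06 that was -1.70 without cell set 4. Fabp2 was at 1441 and 1097 CPM, overlapping the antibiotic 1193, 1446 and 1338 CPM. Lgals2 was higher, at 69.7 and 127 CPM against 18.3, 16.8 and 27.9 CPM, with a log2 ratio of 2.40 that was 1.61 without cell set 4. In Cyp2c55-low cells Lgals2 was at 180 CPM in germ-free and 52.6 CPM in antibiotic ones. Cyp2c65 was at 443 CPM against 366 CPM, apart in the cell sets but under 2-fold.

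Mature colonocyte genes were mostly lower. Of 18 measured colonocyte genes, 0 were at least 2-fold higher and 3 lower, and at any size 2 were higher and 14 lower with cell sets apart, where 37.1% of all genes were higher and 21.4% lower. The median log2 ratio of the list was -0.64. Tmigd1 was at 116 and 112 CPM against 375, 371 and 370 CPM, 3.31-fold lower (2.75 to 4.01). Car4, a membrane carbonic anhydrase of surface cells, was at 81.4 and 83.1 CPM against 257, 346 and 371 CPM, and Saa1, a lipid-binding acute phase protein, at 146 CPM against 486 CPM. In each of these 3 the germ-free cell sets lay below all antibiotic ones. Krt20 was at 467 CPM against 790 CPM. Of 5 measured crypt genes 4 passed the minimum in the germ-free cells alone, so that their direction was set by it. All 16 crypt genes summed to 789 CPM against 553 CPM. Slc12a2 was at 65.4 CPM against 30.7 CPM, with a log2 ratio of 1.07 that was 1.89 without cell set 4.

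Some proximal genes were lower. Of 17 measured proximal genes 1, Lgals2, was at least 2-fold higher, past the minimum in the germ-free cells alone. At least 2-fold lower were 4: Cyp2c55, Mettl7b, Clca4a and S100g, of which Cyp2c55 is the gate gene and is not counted as support. Of all genes 2.51% were called higher and 2.66% lower. S100g, a calcium-binding protein, was at 58.1 and 55.4 CPM against 187, 250 and 99.7 CPM. Of 17 distal genes 3 were measured, and of these Cldn8 passed the minimum in the germ-free cells alone. Aqp4 was at 326 and 231 CPM against 58.4, 51.5 and 74.0 CPM, 3.77-fold higher (3.28 to 4.33). Sycn was at 174 and 296 CPM against 42.6, 112 and 95.5 CPM, and its log2 ratio of 1.68 was 0.96 without cell set 4 and 0.63 in thinned cells, both under 2-fold. Cldn8, a claudin of the distal colon, was at 52.7 CPM against 21.3 CPM, with a log2 ratio of 1.27 that was 2.08 without cell set 4. In Cyp2c55-low cells Sycn was at 1016 CPM in germ-free and 1100 CPM in antibiotic ones.

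The summed level of genes of the interferon response, which defends cells against viruses, was lower. Of 26 such genes 8 were measured, all 8 through the antibiotic cells alone, so that their direction was set by the minimum and no count over them is given. All 26 summed to 393 CPM against 918 CPM. Irf7, Isg15, Oasl2 and Ddx60, given next, are among the 8, so their direction is no separate result. Irf7, a transcription factor of that response, was at 11.6 and 22.4 CPM against 119, 138 and 131 CPM, 6.09-fold lower (4.01 to 9.74). Its log2 ratio of -2.55 was -3.38 without cell set 4, on 1 Irf7 UMI in cell set 3. Isg15, an interferon-induced relative of ubiquitin, had no UMI in cell set 3 and was at 14.6 CPM pooled, against 57.0, 61.8 and 78.7 CPM. Oasl2 was at 12.7 CPM against 51.7 CPM, and Ddx60 at 37.1 CPM against 96.0 CPM (log2 ratio -1.35, and -2.94 without cell set 4). Of 10 measured genes of MHC and antigen processing 0 were higher and 7 lower at any size, where 37.1% of all genes were higher and 21.4% lower. Only 1 of the 10, H2-T23, was at least 2-fold lower. Among the 7, H2-K1 was at 248 CPM against 495 CPM. In Cyp2c55-low cells Irf7 was at 11.7 CPM in germ-free and 24.1 CPM in antibiotic ones, both under the 50 CPM minimum.

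Of 12 measured bile acid and sterol genes 0 were called higher and 1, Slc10a2, lower, with a median log2 ratio of -0.04. For this list and those below, the shares over all genes were 2.51% called higher and 2.66% lower. Slc10a2 was at 116 and 128 CPM against 280, 273 and 252 CPM. Slc51a was at 119 CPM against 192 CPM, and Slc51b at 129 CPM against 174 CPM. Nr1h4 was at 244 and 336 CPM, overlapping the antibiotic 332, 294 and 297 CPM. Of 25 measured genes in the fatty acid oxidation list 0 were higher and 2 lower: Pdk4, a kinase that restrains glucose oxidation, at 0 and 52.2 CPM against 215, 188 and 188 CPM, and Acaa1a, both past the minimum in the antibiotic cells alone. Among 21 genes of xenobiotic conjugation and transport 0 were higher and 3 lower. These were the carboxylesterases Ces2a and Ces2c, and Gstp1, a glutathione transferase, of which Ces2a and Gstp1 passed the minimum in the antibiotic cells alone. Ces2a was at 23.2 and 11.7 CPM against 102, 95.8 and 110 CPM, and Gstp1 at 11.6 and 22.4 CPM against 82.5, 164 and 161 CPM. Without cell set 4 the log2 ratio of Ces2a went from -2.94 to -2.11 and that of Gstp1 from -2.70 to -3.53, and Gstp1 reads can be shared with its paralog Gstp2.

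The genes with the largest ratios included several whose levels were similar in the Cyp2c55-low cells of the germ-free pool. Gip, an incretin hormone of small-intestinal endocrine cells, was at 93.0 and 238 CPM against 0.96, 0 and 0 CPM. Its log2 ratio was 7.54, and without cell set 4 it was 6.27. A Gip UMI was found in 25.9% of thinned Cyp2c55 colonocytes and in 30.1% of thinned germ-free cells over the goblet limit. The 12 enteroendocrine markers, Gip included, summed to 247 CPM in the Cyp2c55 colonocytes, with 6 of them at 0, to 254 CPM in the other germ-free cells and to 4.04 CPM in antibiotic gated cells. Its level in the Cyp2c55-low cells was 207 CPM. Reg1, a secreted lectin, was at 163 CPM against 27.2 CPM, and at 195 CPM in the Cyp2c55-low cells. Fabp1, a fatty acid binding protein, was at 215 CPM against 53.7 CPM, and at 255 CPM in those cells. Olfm4, a crypt glycoprotein, was at 96.6 CPM against 7.45, 6.29 and 10.3 CPM, and at 183 CPM in those cells. Its log2 ratio of 3.38 was 2.65 without cell set 4. Reg1, Fabp1 and Olfm4 were thus no higher, and Gip 1.09-fold higher, in the Cyp2c55 colonocytes than in the Cyp2c55-low cells of their own pool, and free RNA as their source was not tested. Pard3bos1, Gm4876, Lrp1b, 4930422I22Rik, Gm20528 and Kcnq1ot1 were also among the highest, with log2 ratios of 2.80 to 4.57. That of Lrp1b, 3.31, was 4.21 without cell set 4. Pard3bos1 and Kcnq1ot1 are antisense to other genes, and reads of such partners cannot be told apart where strand is not counted. Gm4876 was at 255 CPM in the Cyp2c55 colonocytes and 84.2 CPM in the Cyp2c55-low cells of the same pool, against 22.6 and 16.8 CPM in antibiotic cells.

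Among the lowest, Il31ra, a cytokine receptor subunit, was at 23.2 and 69.3 CPM against 391, 381 and 602 CPM, and its log2 ratio of -2.87 was -4.33 without cell set 4. Cdk8, a kinase of the mediator complex, was at 407 and 650 CPM against 3073, 3020 and 3473 CPM, with a log2 ratio of -2.36 that was -2.99 without cell set 4. In Cyp2c55-low cells Cdk8 was at 757 CPM in germ-free and 2852 CPM in antibiotic ones, so its difference was not limited to the gated cells. Gm42418 with AY036118 and Lars2 made up 4.56% of UMI in the Cyp2c55 colonocytes and 10.8% in antibiotic gated cells, and with these genes and the mitochondrial ones left out of the totals 114 genes were called higher and 104 lower among 4256. The log2 ratio of Cdk8 was then -2.36 and that of Il31ra -2.88. Mitochondrial genes took 19.3% of pooled UMI in the Cyp2c55 colonocytes and 13.1% in antibiotic gated cells, the opposite order to Gm42418, AY036118 and Lars2. Leaving all of these out thus scaled the 2 totals nearly alike, so these ratios could hardly change. The part of such RNA in them was not tested. Tmsb10, an actin-binding peptide, was at 126 CPM against 673 CPM. In Cyp2c55-low cells Tmsb10 was at 126 CPM in germ-free and 316 CPM in antibiotic ones. Without cell set 4 the log2 ratio of Tmsb10 over antibiotic gated cells went from -2.41 to -3.83. Apol10b was at 10.7 CPM against 63.6 CPM, and Gm11867 had 1 UMI (0.98 CPM) against 64.1 CPM, with a log2 ratio of -5.04 that was -2.37 without cell set 4.

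**Figure D4:**
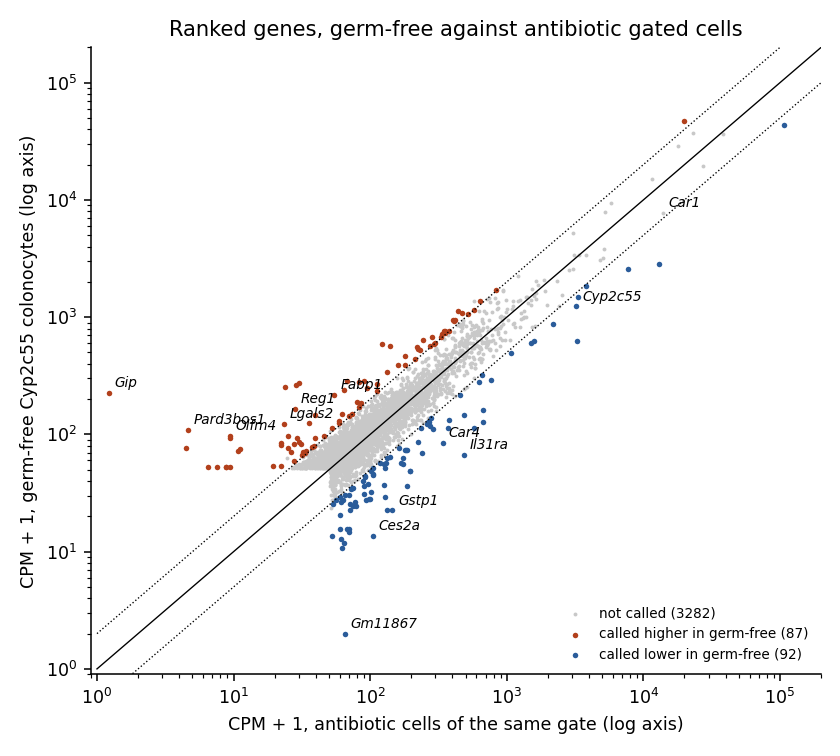
CPM + 1 of 3461 genes in germ-free Cyp2c55 colonocytes (y axis) against antibiotic cells of the same gate (x axis), both on log axes. The solid line marks equal levels and the dotted lines 2-fold. Red genes (87) and blue genes (92) passed 2-fold with cell sets apart, and Gip stands farthest from the line.

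**Figure D5:**
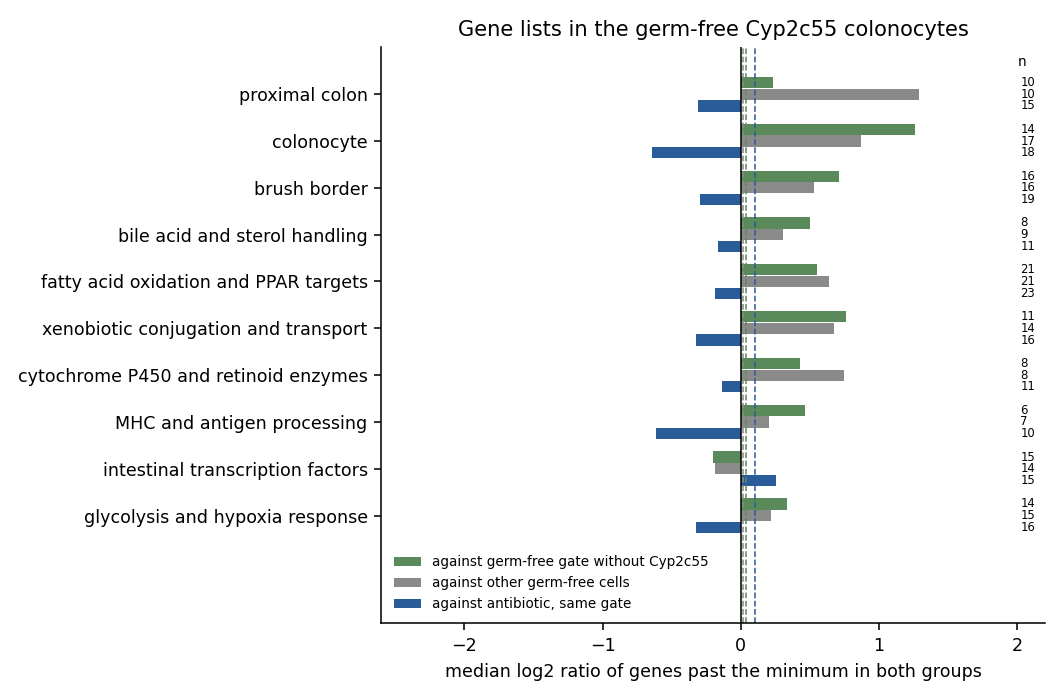
Median log2 ratio in the Cyp2c55 colonocytes over 3 reference groups for the genes of 10 lists at 50 CPM or more in both groups, with their number at the right and dashed lines for the median of all such genes. The colonocyte list is at 1.26 against Cyp2c55-low cells and -0.64 against antibiotic gated cells. The proximal list includes the gate gene Cyp2c55.

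Markers of other cell types were few in the Cyp2c55 colonocytes. Of 12 immune markers 11 had no UMI, with Cd52 at 8.78 CPM and Ptprc among the absent. Of 12 stromal and endothelial markers 11 were at 0, and of 10 tuft markers 9. Goblet genes summed to 758 CPM against 571 CPM in antibiotic gated cells, with Tff3 at 146 CPM against 38.3 CPM and Agr2 at 81.0 CPM against 21.3 CPM. Of 5 measured goblet genes 3, Tff3 and Agr2 among them, passed the minimum in the germ-free cells alone, so that their direction was set by it. Of the other 2, 0 were called in either direction, and at any size 0 were higher and 1 lower. The log2 ratio of Agr2, 1.88, was 2.88 without cell set 4. Tff3 and Agr2 were at 254 and 413 CPM in germ-free Cyp2c55-low cells, and their source in the Cyp2c55 colonocytes was not tested. Scrublet marked 4 of the 198 cells as doublets.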

How the data were processed

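Sorted colon epithelial cells of antibiotic-treated and germ-free mice were measured with a droplet 3' assay. Natural log expression values of 32285 genes in 4183 cells were deposited by the authors. The exponential minus 1 sums to 10000 in each cell, and division by the smallest nonzero value gave whole UMI counts. Per the submitters' processing notes, Cell Ranger 7.0.0, kallisto, bustools and mm10 were used, with roles unstated. Strand use in counting and cell filters: not given in the sources used here.

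Counts were summed over cells and scaled by total UMI to CPM. Intervals (exact Poisson, conditional binomial for ratios, Clopper-Pearson for shares) are at the 95% level and cover counting error only. The log2 ratio is that of CPM + 1 and understates changes of low genes. With 1 pool per condition no test was run. Genes were counted in a list or comparison from 50 UMI over both groups and 50 CPM in the higher one. CPM is the UMI of a gene divided by all UMI of the group and scaled to parts per 1e6. Depth was 3101000 UMI in germ-free and 36530000 in antibiotic cells.

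The cells and the 30 gene lists were chosen with earlier results of these data known. Named genes are the 12 most extreme ratios per direction among genes with cell sets apart, against antibiotic gated cells and against the other germ-free cells, up to 4 genes of each list with the highest CPM, and the 4 markers. Ribosomal, mitochondrial, Xist, Y-linked and gate genes other than Cyp2c55 stayed out of the ranking, and not all named genes are printed; some items are not reported here. Adh1, Krt20, Slc51b, Slc10a2, Hoxb13, Isg15, Oasl2, Saa1, S100g, Pdk4, Hcar2, Prdx6 and Ptprc were picked from the lists after their values were seen, as were list genes named for being called, and Acaa1a, Ces2c and Xist. Scrublet marked 23 cells (0.55%) as doublets, and they were kept. Gene positions are from GENCODE vM21 (mm10) and promoters from RefSeq (GRCm38.p6), where all 4 printed genes matched. Scanpy 1.11.5 was used with SciPy 1.17.1, NumPy 2.4.6, pandas 2.3.3, matplotlib 3.10.9 and Python 3.11.15. Alternatives covered scaling, thinning, cell filters, gate limits, references and each cell set left out.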

Additional observations from a re-analysis of the deposited data

Results flagged for a closer look

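The contrast of cells passing the gate with cells that met every part of it except Cyp2c55 was made in each condition, and 6 of the genes reported here went one way in both germ-free cell sets and the opposite way in all 3 antibiotic ones. The search covered those of the 155 named genes with enough UMI in both conditions. Over all genes, 34.5% were higher and 34.9% lower at any size in both germ-free cell sets. No share over all genes was taken for opposite directions, so whether 6 is more than among other genes cannot be said. All 6 were under 2-fold in both conditions. The differences were not tested, and the antibiotic cell sets share barcodes. Aqp4, the water channel, had a log2 ratio of 0.85 in germ-free and -0.83 in antibiotic cells: in germ-free cells it was higher in the Cyp2c55 colonocytes (239 CPM) than in Cyp2c55-low cells (133 CPM), and in antibiotic cells it was lower (63.4 against 114 CPM). Atf3, a stress-induced transcription factor, had log2 ratios of 0.29 and -0.26, and Bhlhe40, a clock-linked repressor, of 0.50 and -0.17. Hnf4a, a nuclear receptor of enterocyte identity, had 0.28 and -0.27. Muc13, a membrane mucin, had 0.18 and -0.14. Rbp2, a retinol-binding protein, had -0.15 in germ-free and 0.33 in antibiotic cells.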

How the results depend on the processing

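No paired analysis was possible because cells were pooled by condition, the numbers of germ-free cell sets match no library label, and no test was run. Counts of genes higher and lower than in antibiotic gated cells were 56 higher (123 lower) with median-of-ratios scaling, 151 and 171 in cells thinned to 1000 UMI, 240 higher in cells with at most 15% mitochondrial UMI, and 444 and 811 with a minimum of 20 UMI and no CPM limit. Leaving out each cell set gave 76 to 664 higher and 90 to 394 lower, the highest values without germ-free cell set 4. Against the other germ-free cells 329 genes were lower with at most 15% mitochondrial UMI, 805 were lower with 20 UMI and no CPM limit, and 237 were higher with the Cyp2c55-low cells as reference. Leaving out each germ-free cell set gave 87 to 167 higher and 92 to 206 lower. The share of cells in the gate was 18.9% of germ-free and 34.6% of antibiotic cells with 1000 genes per cell, 13.9% and 31.4% with Cyp2c55 of 10 or more, and 37.4% of antibiotic cells with at most 15% mitochondrial UMI. An alternative chosen after seeing the data, each antibiotic barcode kept once, gave 44.4%. It was 17.0% to 31.6% without each germ-free cell set and 39.2% to 41.4% without each antibiotic one. Of the values of single genes, 3 reversed: Retnlb to -0.31 against antibiotic gated cells with at most 15% mitochondrial UMI, and Clca1 to 0.035 and Pecam1 to 0.98 with the Cyp2c55-low cells as reference. Of the others 829 moved by more than their counting error and 5263 did not. For each of these changes the cause was not tested. Cell set 3, at 1510 UMI per cell, limits genes under 34.9 CPM, the level of 3 UMI.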
